A study of Mus musculus with 12 samples.

Results

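The CXC chemokine genes examined here were Cxcl1, Cxcl2, Cxcl3, Cxcl5, Cxcl9, Cxcl10, Cxcl11, Cxcl13 and Cxcl16, 9 of the 21888 genes tested, and the question was where the transcription factor FRA-1 was bound around them in macrophages. A member region was any stretch of DNA with a FRA-1 peak that lay within 20 kb of one of these genes or carried its symbol in the deposited tables, and a stretch shared by neighbouring genes was counted only once. Of 300608 regions in all, 36 met this rule. FRA-1 binding was measured by chromatin immunoprecipitation followed by sequencing (ChIP-seq), which recovers the DNA fragments attached to a protein and calls a peak where they pile up. The samples were adherent peritoneal macrophages of male or female mice aged 8 weeks, with 3 replicates per condition. They were left unstimulated or stimulated for 1 h with lipopolysaccharide (LPS, a component of the outer membrane of Gram-negative bacteria). The remaining macrophages were given apoptotic cells for 1 h at a ratio of 1 macrophage to 5 apoptotic cells.

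The records of the study differ on these groups. By the sample records, the mice had a 129/C57Bl6 background, their macrophages were elicited with 2.5 ml of 4% thioglycollate 72 h before lavage, and LPS was used at 1 µg/ml. The design text instead names C57Bl/6 mice, plain lavage and 10 µg/mL LPS. The sample records list the same 3 mice in every condition, whereas the design text counts 9 animals. The score columns name no mouse, so replicates 1 to 3 below are the order of the columns in each table. No genotype beyond the background is given for any group, and the 3 pooled input samples stayed out of the comparison.

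CXC chemokines are small secreted proteins that steer leukocytes through G protein-coupled receptors. Macrophages are a well known source of them once toll-like receptors sense bacterial products, with NF-kB and interferon-activated factors acting at their promoters. FRA-1, the product of Fosl1, belongs to the AP-1 family of transcription factors, which bind DNA as pairs of FOS and JUN proteins at the motif TGANTCA. Peaks show where the factor was found on DNA and not how much a gene was transcribed, so the identity of the cells cannot be checked from these tables. Regions recurring in at least 2 LPS replicates lay near 4 of 7 macrophage, 1 of 4 lymphocyte and 0 of 3 neutrophil marker genes, where 48.7% of all genes had such a region. For unstimulated replicates the numbers were 0 of 7, 1 of 4 and 0 of 3 (13.6% of all genes), and for apoptotic cell replicates 3 of 7, 0 of 4 and 0 of 3 (24.4%), and these short lists tell nothing of the cells.

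The number of peaks differed widely between replicates. Unstimulated replicates had 20981 to 28314 peaks, LPS replicates 39728 to 63010 and apoptotic cell replicates 31501 to 79474. The replicates also fell into classes by their smallest peak, which measured 104 to 116 bp in 4 replicates (unstimulated 3, LPS 1 and 3, apoptotic cells 3), called narrow here, and 158 to 172 bp in the other 5, called wide. Each peak has a score that is higher for a stronger peak, and the lowest score listed was 50.01. As scores were not scaled between replicates, each is also given as its percentile among the peaks of the same replicate. Sequencing depth is unknown, because the tables hold no read counts.

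Unstimulated replicates 1, 2 and 3 had 5, 0 and 2 peaks in the windows of the CXC chemokine genes. LPS replicates had 8, 5 and 5. Apoptotic cell replicates had 2, 3 and 11. The unstimulated and LPS ranges met at 5 peaks, and the apoptotic cell replicates overlapped the unstimulated range and went past it through replicate 3, the replicate with the most peaks in the whole genome.

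The mean was 2.33 ± 2.52 peaks without stimulation, 6 ± 1.73 after LPS and 5.33 ± 4.93 with apoptotic cells (SD, n = 3 replicates each). The LPS mean was thus 2.57 times the unstimulated mean, beside 1.99 times for all peaks of the genome. The apoptotic cell mean was 2.29 times the unstimulated mean, beside 2.03 times for all peaks. The ratio of LPS to apoptotic cells was 1.13, beside 0.980 for all peaks. How far these ratios depart from those of the genome was not tested, and the spread between replicates of a condition was as large as the mean itself in unstimulated macrophages and close to it with apoptotic cells.

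**Figure D1:**
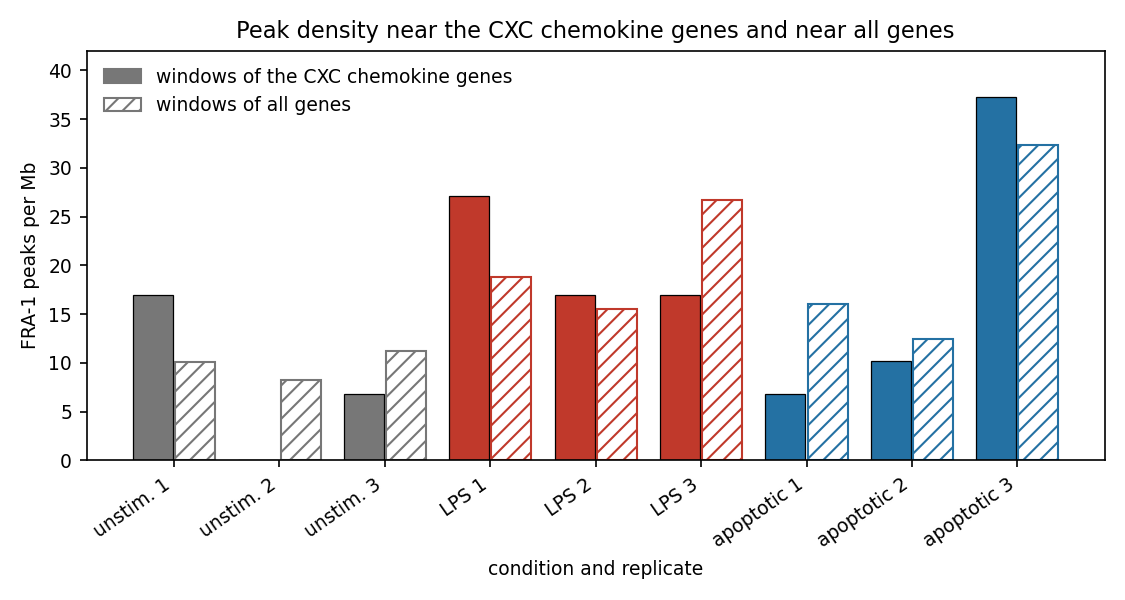
Density of FRA-1 peaks (peaks per Mb, vertical axis) in the windows of the 9 CXC chemokine genes (filled bars) and in the windows of all genes (hatched bars), for each of the 9 replicates. Each bar is 1 replicate without an error bar, and the filled bar is taller than the hatched bar in unstimulated 1, LPS 1, LPS 2 and apoptotic 3.

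Relative to the length of the windows, the CXC chemokine genes were neither regularly richer nor regularly poorer in peaks than other genes. Their windows covered 295.2 kb in 5 separate stretches. In unstimulated replicates 1, 2 and 3 they held 16.9, 0 and 6.78 peaks per Mb, against 10.1, 8.24 and 11.2 in the windows of all genes. In LPS replicates they held 27.1, 16.9 and 16.9 peaks per Mb, against 18.75, 15.5 and 26.7. In apoptotic cell replicates they held 6.78, 10.2 and 37.3 peaks per Mb, against 16.1, 12.4 and 32.3. The CXC chemokine windows were the denser ones in 4 of 9 replicates, with at least 1 such replicate in each condition.

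Of the 36 member regions, 33 had a peak in 1 of the 9 replicates, 2 had a peak in 2 replicates, 1 had a peak in 4 replicates and 0 had a peak in every replicate. Thus 3 of 36 recurred in at least 2 replicates, close to the 10.3% of all regions that did, and 1 of 36 in at least 4, where 3.21% of all regions did. Unstimulated macrophages had peaks in 7 member regions, LPS-stimulated macrophages in 17 and macrophages with apoptotic cells in 16, and 5, 14 and 14 of these were listed in that condition only. Each of the regions listed in a single condition rests on a single replicate. Chromosome 5, on which 8 of the 9 genes lie, held 31 of the regions, and 17 regions were within reach of more than 1 member.

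Regions recurring within a condition were sought next. No member had a region in at least 2 unstimulated replicates (0 of 9, where 13.6% of all genes did) or in at least 2 apoptotic cell replicates (0 of 9, where 24.4% did). After LPS, 3 of 9 members had such a region, where 48.7% of all genes did, and these 3, Cxcl9, Cxcl10 and Cxcl11, shared a single region inside Cxcl10. The windows of the 9 genes were shorter than most, with a median of 42.3 kb against 57.2 kb over all genes. Regions with a peak in at least 2 LPS replicates and in no unstimulated replicate numbered 0 of 22 among the member regions listed in either condition, where 7.05% of all such regions met the rule. The same count for apoptotic cells was 0 of 22, where 1.18% did.

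**Figure D2:**
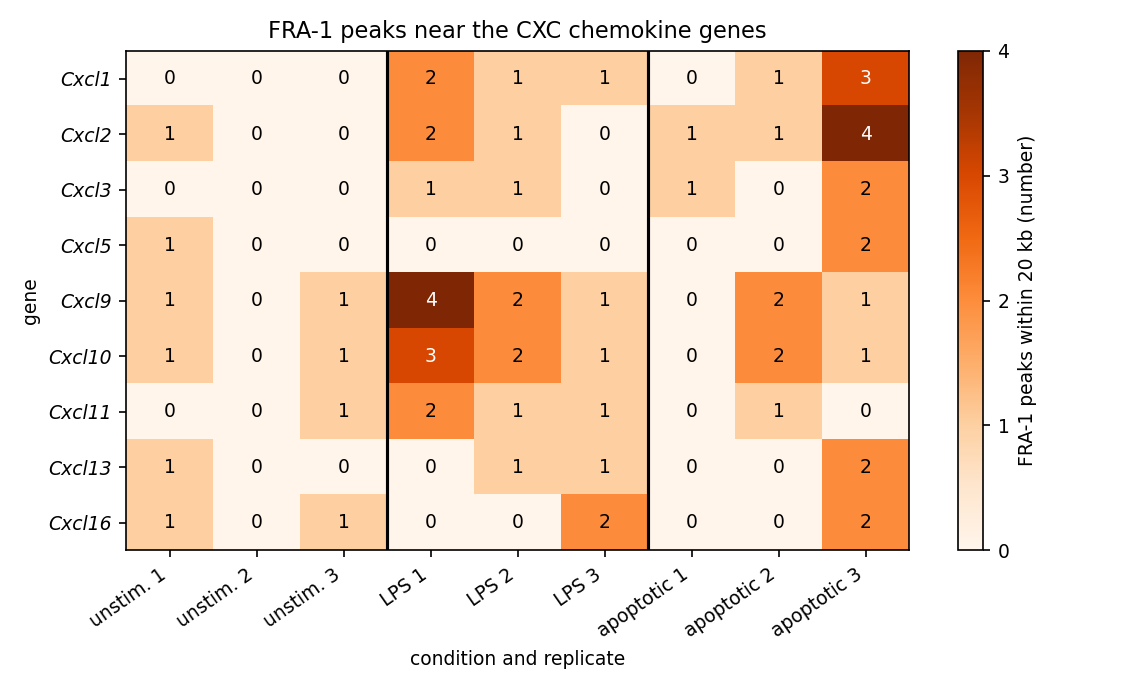
Number of FRA-1 peaks within 20 kb of each CXC chemokine gene (rows) in each of the 9 replicates (columns, with vertical lines between conditions); the colour scale runs from 0 to 4 peaks. A peak near several genes counts for each of them, unstimulated replicate 2 has 0 peaks at every gene, and Cxcl1 is the gene with peaks in every LPS replicate and in no unstimulated replicate.

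Cxcl10 held the region that recurred most often. CXCL10 attracts activated T cells and natural killer cells through the receptor CXCR3, and its gene is a classical target of interferons and NF-kB. Cxcl10 lies on the minus strand of chromosome 5 from 92346638 to 92348889 (GRCm38). The region, chr5:92347475-92347637, was inside the gene and began 1252 bp downstream of its transcription start. The gene Art3, from 92331799 to 92414628, encloses Cxcl10, so that the region is in the body of both genes.

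Inside Cxcl10, unstimulated replicate 3 had a peak from 92347519 to 92347635 with a score of 151.0, at percentile 58.4 of its replicate. LPS replicate 1 had a peak from 92347525 to 92347636 with a score of 222.6, at percentile 83.9, and LPS replicate 3 from 92347529 to 92347637 with a score of 208.2, at percentile 59.2. Apoptotic cell replicate 2 had a peak from 92347475 to 92347635 with a score of 133.8, at percentile 49.9. The higher scores were thus those of the LPS replicates, but in percentile the peak of LPS replicate 3 was close to that of the unstimulated replicate.

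LPS replicate 2, unstimulated replicates 1 and 2 and apoptotic cell replicates 1 and 3 had no peak listed there. Of the 4 replicates with the peak, 3 were of the narrow class. Both LPS replicates with the peak were of that class too, and across the genome 76.5% of the regions in at least 2 LPS replicates were shared by replicates 1 and 3 only. Whether peak width plays a part in this recurrence was not tested. Without unstimulated replicate 3, the region had a peak in 2 LPS and 0 unstimulated replicates, and without LPS replicate 1 or 3 it did not recur after LPS.

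**Figure D3:**
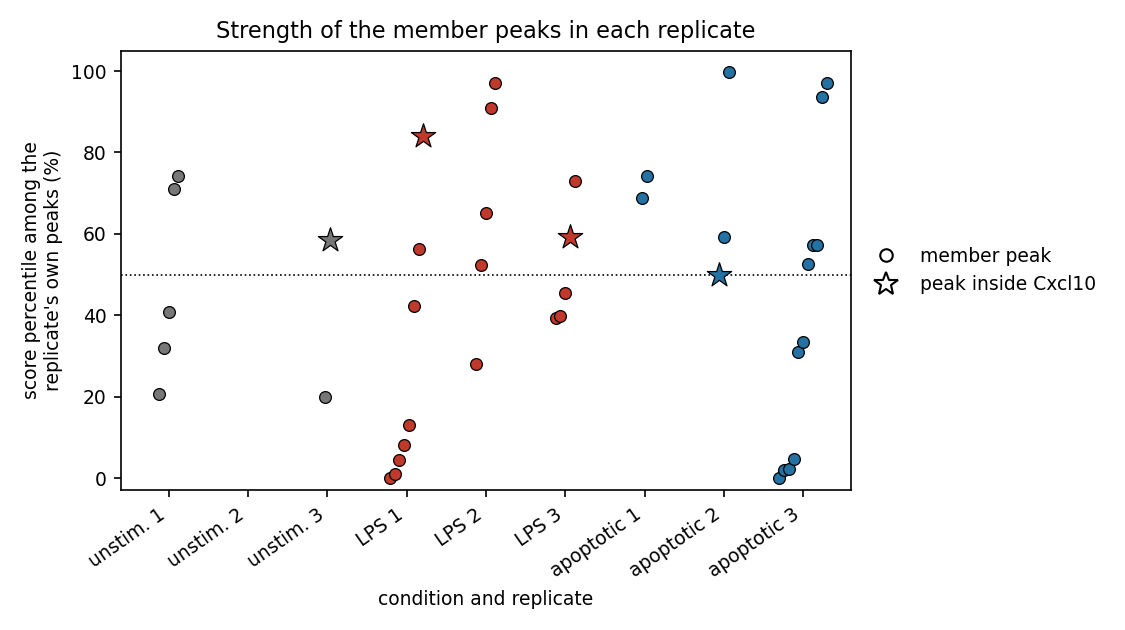
Score of each member peak as its percentile among the peaks of its own replicate (vertical axis, %) in each of the 9 replicates; stars mark the 4 peaks inside Cxcl10, and the dotted line is the median of the replicate. Side-by-side points within a replicate are spread only to be visible, and the star of LPS 1 stands at 83.9% while those of unstimulated 3, LPS 3 and apoptotic 2 lie from 49.9% to 59.2%.

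The promoter of Cxcl10 itself had no peak. To show what the factor could meet there, the 250 bases before the transcription start are printed below (RefSeq, GRCm38.p6, chr5:92348890-92349139, minus strand), with 3 motif matches in capitals. From left to right these are a core of the interferon-stimulated response element (GAAANNGAA), a core of the NF-kB motif (GGAANTTCC) and the AP-1 motif (TGANTCA), each searched on both strands.
Cxcl10 promoter: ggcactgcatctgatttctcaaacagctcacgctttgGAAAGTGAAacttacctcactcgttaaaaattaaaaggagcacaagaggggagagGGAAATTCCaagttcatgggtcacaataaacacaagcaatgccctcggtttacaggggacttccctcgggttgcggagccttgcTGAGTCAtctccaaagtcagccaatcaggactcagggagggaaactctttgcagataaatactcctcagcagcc
Counted from the first transcribed base as 0, the AP-1 match lies at positions -74 to -68. The nearest peak to this promoter, in LPS replicate 3, ended 1203 bp away.

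Around Cxcl10, strong peaks of LPS replicate 2 lay beyond the end of the gene. The first, chr5:92338476-92338662, had a score of 272.4 (percentile 97.1) and the other, chr5:92340809-92341268, a score of 210.8 (percentile 90.9). Both are inside Art3 and were listed in no other replicate. Of the peaks of LPS replicate 2 that scored as high as the first, 33.3% overlapped a peak of another replicate. In all, unstimulated replicates had 1, 0 and 1 peaks within 20 kb of Cxcl10, LPS replicates 3, 2 and 1 and apoptotic cell replicates 0, 2 and 1. The LPS and unstimulated ranges met at 1 peak (difference of means 1.33 peaks, exact permutation test, two-sided, p = 0.3).

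Cxcl9 encodes another CXCR3 ligand, induced above all by interferon gamma, and lies next to Cxcl10 from 92321331 to 92328079 on the minus strand. The strongest peak of all member peaks was inside it. Apoptotic cell replicate 2 had a peak at chr5:92327329-92327556 with a score of 500.5 (percentile 99.8), from 523 to 750 bp downstream of the start. Only 74 of the 31501 peaks of that replicate scored as high. It was listed in no other replicate, whereas 81.1% of those 74 peaks overlapped a peak of another replicate.

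Further into Cxcl9, LPS replicate 1 had a peak at chr5:92325973-92326204 with a score of 72.56 (percentile 8.04). Upstream of the start, the tables listed a peak 3308 bp away in unstimulated replicate 1 (score 162.3), 4703 bp away in LPS replicate 1 (56.27) and 2544 bp away in apoptotic cell replicate 3 (111.0). These upstream peaks did not touch each other, and each of them is the only peak that its deposited table assigns to Cxcl9. Unstimulated replicates had 1, 0 and 1 peaks within 20 kb of Cxcl9, LPS replicates 4, 2 and 1 and apoptotic cell replicates 0, 2 and 1. Cxcl9 had the largest LPS difference of the 9 genes, 1.67 peaks, but the ranges met at 1 peak (exact permutation test, two-sided, p = 0.3).

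Cxcl9 is the other member with an AP-1 match near its start. The match lies in transcribed sequence, at positions 31 to 37 on the same count. Both matches are shown with 10 bases on either side and the motif in capitals, read along the gene (minus strand, GRCm38.p6), at chr5:92348947-92348973 for Cxcl10 and chr5:92328032-92328058 for Cxcl9.
Cxcl10 AP-1 match: ggagccttgcTGAGTCAtctccaaagt
Cxcl9 AP-1 match: tccaacacagTGACTCAatagaactca
The promoter window, 250 bases before to 50 bases after the start, was available for 6 of the 9 members, and 2 of these held the AP-1 motif, where 7.93% of 27025 promoters did. No peak of any replicate overlapped the 6 windows (0 of 6, where 4.77% of all promoter windows had a peak).

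Cxcl11, the third CXCR3 ligand of this cluster, is annotated as a transcribed pseudogene in the C57BL/6J reference, from 92359544 to 92363296. Its direction was not given in the tables used here. The region nearest to it, chr5:92355034-92355286, was 4258 bp to the lower-coordinate side, inside Art3, and came from LPS replicate 1 alone with a score of 50.01, at the bottom of that replicate. Unstimulated replicates had 0, 0 and 1 peaks within 20 kb, LPS replicates 2, 1 and 1 and apoptotic cell replicates 0, 1 and 0. The LPS replicates were at or above the highest of the others (difference from unstimulated 1.00 peaks, exact permutation test, two-sided, p = 0.3). Most of these peaks are those inside and beyond Cxcl10.

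**Figure D4:**
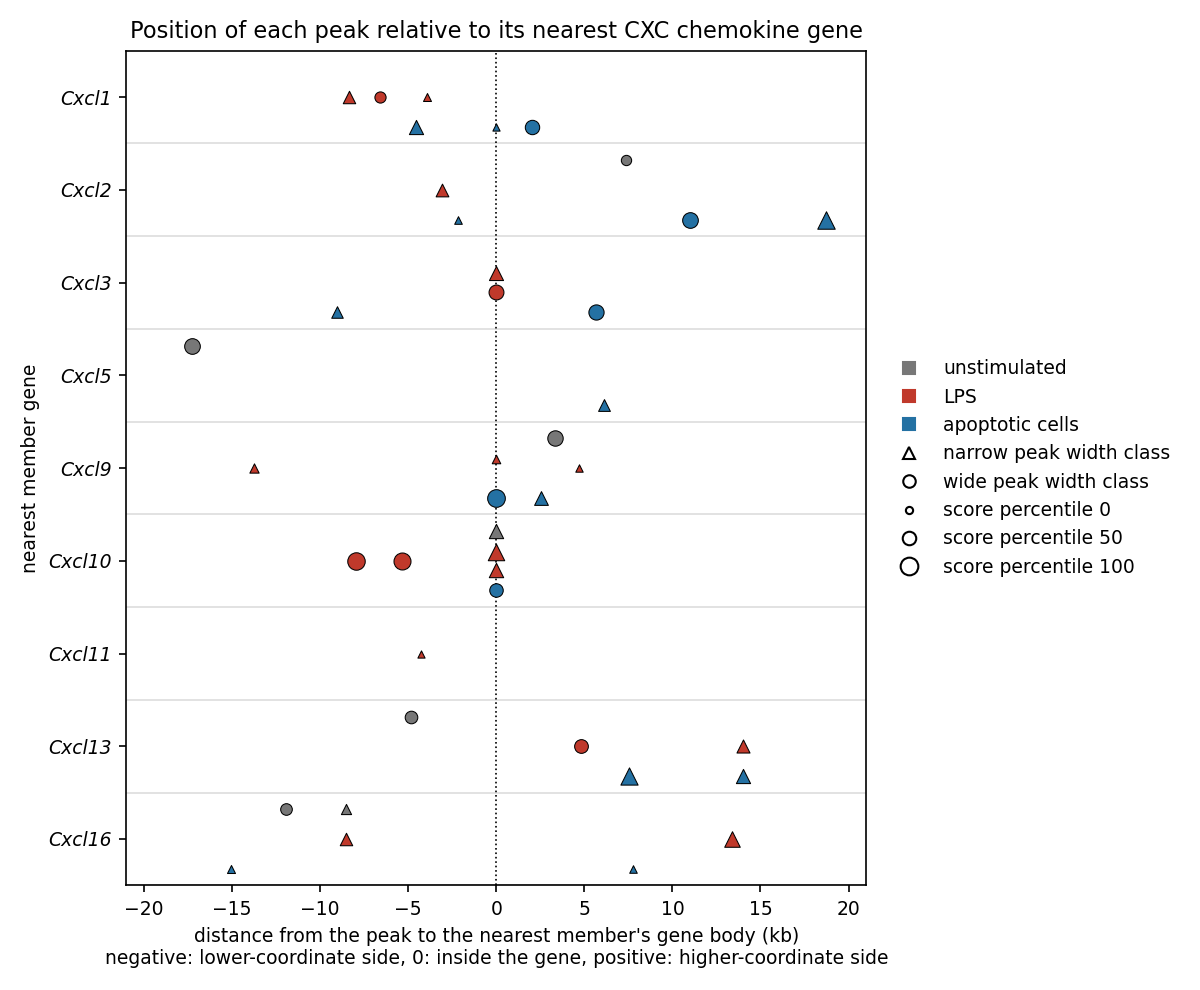
Distance from each of the 41 member peaks to the gene body of the nearest CXC chemokine gene (horizontal axis, kb; 0 is inside the gene, negative the lower-coordinate side), with 1 row per gene, colour for the condition, shape for the peak width class and size for the score percentile. Vertical offsets within a row only separate conditions and replicates. Peaks of a shared region stack on each other across conditions at Cxcl10 (inside), Cxcl13 (14032 bp beyond the gene) and Cxcl16 (8539 bp on the lower-coordinate side). All peaks inside a gene are drawn at 0, so the separate peaks inside Cxcl9 and inside Cxcl3 stack there without sharing a position.

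Cxcl1, Cxcl2, Cxcl3 and Cxcl5 encode the neutrophil attractants of the family, which act through CXCR2. They lie together on chromosome 5, and Cxcl1 and Cxcl2 are 10777 bp apart, so that their windows share 7 regions. Within 20 kb of Cxcl1, unstimulated replicates had 0, 0 and 0 peaks, LPS replicates 2, 1 and 1 and apoptotic cell replicates 0, 1 and 3. Every LPS replicate was above every unstimulated replicate, and the apoptotic cell replicates overlapped both.

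Cxcl1 was the only one of the 9 members whose LPS and unstimulated replicates did not overlap in this number, where 9.87% of all genes had every LPS replicate above every unstimulated replicate. The difference was 1.33 peaks (exact permutation test, two-sided, p = 0.1, which is the minimum that 3 against 3 replicates allow, Benjamini-Hochberg adjusted p = 0.980 over 21888 genes). The peaks of the LPS replicates did not lie at a common place. LPS replicate 3 had a peak 8355 bp upstream of the start (score 164.2, percentile 39.4), LPS replicate 2 at 6613 bp (99.92, percentile 28.1) and LPS replicate 1 at 3937 bp (69.17, percentile 4.35), besides a peak nearer to Cxcl2. All were below the median of their replicate, and the groups overlapped with scores of at least 100, above the replicate's median, with equal numbers of top-scoring peaks, by the deposited gene column and within 5 kb of the gene. Within 50 kb the groups at Cxcl1 overlapped too (difference 1.67 peaks). The member apart was Cxcl11 instead, where 15.5% of all genes had LPS above unstimulated under this setting. The separation at Cxcl1 held without each replicate in turn, but this outcome was fixed in advance. Groups that do not overlap stay apart when a replicate is removed. Without LPS replicate 3, Cxcl3, Cxcl9 and Cxcl10 were also apart (4 of 9 members, where 12.2% of all genes had LPS above unstimulated under this setting), and without unstimulated replicate 3, Cxcl11 was (2 of 9, where 16.6% did).

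With apoptotic cells, replicate 3 had a peak 4534 bp upstream of Cxcl1 with a score of 111.3, the commonest score of that replicate. It had a further peak inside the gene, chr5:90892088-90892283, with a score of 50.66, near the lowest listed. In replicate 2, a peak scoring 148.9 lay 2034 bp past the 3′ side of the gene. None of these touched a peak of another replicate.

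Cxcl2 encodes MIP-2, a rapidly induced neutrophil attractant. Unstimulated replicates had 1, 0 and 0 peaks within 20 kb, LPS replicates 2, 1 and 0 and apoptotic cell replicates 1, 1 and 4. The ranges of all 3 conditions overlapped (apoptotic cells minus unstimulated 1.67 peaks, exact permutation test, two-sided, p = 0.3, and LPS minus unstimulated 0.667 peaks, p = 0.7 by the same test). With scores of at least 100, or above the replicate's median, every apoptotic cell replicate was above every unstimulated replicate at Cxcl2 (difference 1.33 peaks in either, where 3.94% and 2.04% of all genes were so placed). The only unstimulated peak near Cxcl2, that of replicate 1, had a score of 96.44 (percentile 20.6), so that either limit left it out. Every apoptotic cell replicate was also above every LPS replicate for peaks above the median (LPS minus apoptotic cells -1.33 peaks, 0.672% of all genes) and with equal numbers of top-scoring peaks (-1 peaks, 1.14%). The apoptotic cell peaks that scored at least 100 did not lie at a common place. That of replicate 1 was 10994 bp beyond Cxcl2, and that of replicate 2 was 2034 bp beyond Cxcl1, the nearer member. Replicate 3 had a peak 4534 bp upstream of Cxcl1 besides the strongest peak near Cxcl2. This strongest peak, chr5:90924643-90924754, had a score of 239.8 (percentile 97.1) but lay 18705 bp beyond the end of Cxcl2 and nearer to Mthfd2l. The peaks closest to the start were 2181 bp upstream in apoptotic cell replicate 3 (score 57.54) and 3102 bp upstream in LPS replicate 1 (125.2).

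Cxcl3 had the peak closest to a transcription start of all 9 genes. LPS replicate 2 had a peak at chr5:90786232-90786426 with a score of 146.5 (percentile 65.1), from 131 to 325 bp downstream of the start, and LPS replicate 1 had a separate peak at chr5:90787121-90787230 with a score of 136.6 (percentile 56.4), from 1020 to 1129 bp downstream. Both lie inside the gene, which extends from 90786101 to 90788093 on the plus strand, but they do not overlap and were counted as separate regions. Inside Cxcl3, the tables list nothing for unstimulated or apoptotic cell replicates. Counted within 20 kb, unstimulated replicates had 0, 0 and 0 peaks, LPS replicates 1, 1 and 0 and apoptotic cell replicates 1, 0 and 2, so that LPS replicate 3 matched the unstimulated ones (difference 0.667 peaks, exact permutation test, two-sided, p = 0.4).

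The promoter of Cxcl3 is printed because the nearest peak, that of LPS replicate 2, began only 82 bp beyond the promoter window. The 250 bases before the start (RefSeq, GRCm38.p6, chr5:90785851-90786100, plus strand) hold the NF-kB core, in capitals, at positions -72 to -64.
Cxcl3 promoter: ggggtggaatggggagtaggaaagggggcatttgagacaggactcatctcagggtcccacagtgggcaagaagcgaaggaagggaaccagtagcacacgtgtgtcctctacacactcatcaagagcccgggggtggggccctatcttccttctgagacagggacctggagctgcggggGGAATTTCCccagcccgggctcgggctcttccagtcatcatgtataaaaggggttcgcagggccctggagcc
The same letters, in capitals, stand in the corresponding 250 bases of Cxcl1 (chr5:90890995-90891244, plus strand) and Cxcl2 (chr5:90903649-90903898, plus strand), shown for comparison between these closely related genes.
Cxcl1 promoter: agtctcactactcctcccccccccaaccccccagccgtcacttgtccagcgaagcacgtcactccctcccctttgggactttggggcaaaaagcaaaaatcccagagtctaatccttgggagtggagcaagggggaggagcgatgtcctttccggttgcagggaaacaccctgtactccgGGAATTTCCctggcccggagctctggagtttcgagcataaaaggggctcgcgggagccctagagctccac
Cxcl2 promoter: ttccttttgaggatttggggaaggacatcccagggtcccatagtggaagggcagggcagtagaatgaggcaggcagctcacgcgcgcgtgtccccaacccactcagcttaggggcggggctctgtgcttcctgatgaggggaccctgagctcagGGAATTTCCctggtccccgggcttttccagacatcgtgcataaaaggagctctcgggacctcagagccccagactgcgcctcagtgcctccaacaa
The NF-kB core was thus found in 4 of 6 members, Cxcl1, Cxcl2, Cxcl3 and Cxcl10, where 0.973% of all promoters held it. The interferon response core was found in Cxcl9 and Cxcl10, where 8.57% of all promoters held it. The cyclic AMP response element TGACGTCA, another motif that AP-1 family pairs can bind, was found in 0 of 6, where 1.88% of all promoters held it. A match is a description of the letters and not evidence of binding.

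Cxcl5 had the fewest replicates with a peak. It encodes LIX, a further CXCR2 ligand. Unstimulated replicates had 1, 0 and 0 peaks within 20 kb, LPS replicates 0, 0 and 0 and apoptotic cell replicates 0, 0 and 2. It was the only member without a listed peak after LPS, and the ranges overlapped (LPS minus unstimulated -0.333 peaks, exact permutation test, two-sided, p = 1). The unstimulated peak was 17269 bp away with a score of 169.9, and the peaks of apoptotic cell replicate 3 lay between Cxcl5 and Cxcl3, nearer to the platelet chemokine genes Ppbp and Pf4.

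Cxcl13, whose product guides B cells through CXCR5, lies apart on chromosome 5 from 95956939 to 95961068 on the plus strand. Its region chr5:95975100-95975209, 14032 bp beyond the end of the gene, recurred in LPS replicate 3 (score 171.6, percentile 45.5) and apoptotic cell replicate 3 (111.3, percentile 57.3), both of the narrow class. Apoptotic cell replicate 3 had a stronger peak 7513 bp beyond the gene (199.0, percentile 93.6), listed in no other replicate. Unstimulated replicates had 1, 0 and 0 peaks within 20 kb, LPS replicates 0, 1 and 1 and apoptotic cell replicates 0, 0 and 2. The conditions overlapped (LPS minus unstimulated 0.333 peaks, exact permutation test, two-sided, p = 1).

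Cxcl16 encodes a membrane-bound chemokine that binds CXCR6 and also serves as a scavenger receptor. It is the member on chromosome 11, from 70454389 to 70459984. Its region chr11:70445683-70445850, 8539 bp to the lower-coordinate side, recurred in unstimulated replicate 3 (score 103.7, percentile 19.8) and LPS replicate 3 (164.3, percentile 39.8), again of the narrow class. Unstimulated replicates had 1, 0 and 1 peaks within 20 kb, LPS replicates 0, 0 and 2 and apoptotic cell replicates 0, 0 and 2. The means of the 3 conditions were equal, and each of the 5 regions lay nearer to Arrb2 or Zmynd15 than to Cxcl16.

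In the other directions and comparisons, 0 of 9 members had non-overlapping numbers of peaks. All genes gave 0.187% for LPS below unstimulated, 6.57% for apoptotic cells above unstimulated and 0.169% for apoptotic cells below unstimulated. Without a single replicate, 1 of 9 members came apart for apoptotic cells above unstimulated, namely Cxcl2 without unstimulated replicate 1 (9.96% of all genes under this setting), Cxcl1 without apoptotic cell replicate 1 (13.9%) and Cxcl3 without apoptotic cell replicate 2 (19.3%). Between the stimuli, all genes gave 1.99% for LPS above apoptotic cells and 1.28% for LPS below apoptotic cells, again beside 0 of 9 members (1 of 9, Cxcl11 with LPS above, without apoptotic cell replicate 2, where 2.81% of all genes did). After adjustment over 21888 genes, no gene passed an adjusted p of 0.05 in a comparison of conditions (exact permutation test, smallest adjusted p 0.980 for LPS and 1 for the other comparisons), since 3 against 3 replicates cannot go below p = 0.1. At that unadjusted value stood 2202, 1474 and 717 genes for LPS against unstimulated, apoptotic cells against unstimulated and LPS against apoptotic cells, and Cxcl1 was the only member among them, in the first comparison. No member region had a peak in every replicate, so scores were not tested between conditions at a common region.

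The bodies of the genes were occupied in 4 of 9 members, Cxcl1, Cxcl3, Cxcl9 and Cxcl10. This stands beside 72.0% of all gene bodies, and beside 27.1% of those no longer than the longest member, Cxcl9 with 6749 bp. Of the 36 regions, 6 were inside a member, 17 were within 5 kb of the nearest member and 16 were nearer to another protein-coding gene. Of the 41 member peaks, 3 were within 1 kb of a member's start. Peak scores were ordinary, with a median at percentile 49.9, and 5 peaks stood above the 90th percentile, those of LPS replicate 2 beyond Cxcl10, of apoptotic cell replicate 2 inside Cxcl9 and of apoptotic cell replicate 3 beyond Cxcl2 and Cxcl13.

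The deposited gene column assigned far fewer peaks to the family. It named Cxcl9 and Cxcl13 in unstimulated macrophages, and Cxcl1, Cxcl2 and Cxcl9 both after LPS and with apoptotic cells, with 1 segment each. All of these lay upstream of their gene. Cxcl3, Cxcl5, Cxcl10, Cxcl11 and Cxcl16 appeared in none of the 3 gene columns.

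Of the 14 other CXC chemokine and receptor genes, 6 had a region in at least 2 LPS replicates (48.7% of all genes did), 1 in at least 2 apoptotic cell replicates (24.4%) and 0 in at least 2 unstimulated replicates (13.6%). These 6 were Cxcl12, Cxcl15, Cxcl17, Cxcr1, Cxcr2 and Cxcr5, and each of their regions was listed in LPS replicates 1 and 3. Cxcl12, which encodes the ligand of CXCR4, had a region inside the gene with peaks in 5 replicates. These were unstimulated 3 (score 151.0, percentile 58.4), LPS 1 (136.6, percentile 56.4) and 3 (265.3, percentile 76.15) and apoptotic cells 1 (129.5, percentile 56.1) and 3 (184.3, percentile 91.6). The highest score was thus that of LPS replicate 3 and the highest percentile that of apoptotic cell replicate 3. Between Cxcl15 and Cxcl1, a region 9316 bp beyond the end of Cxcl15 had peaks in 4 replicates. Its scores were 117.9 (percentile 31.7) in unstimulated replicate 3 and 150.1 (percentile 71.4) in apoptotic cell replicate 1. LPS replicates 1 and 3 had 245.8 (percentile 87.6) and 293.4 (percentile 81.0). This region lies outside the 20 kb windows of the 9 genes.

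Cxcr1 and Cxcr2, the receptors of the neutrophil attractants, shared 1 region with peaks in LPS replicates 1 (136.6, percentile 56.4) and 3 (226.9, percentile 66.1) only. Cxcr5, the receptor of CXCL13, had a region inside the gene with peaks in 3 replicates. These were LPS 1 (87.22, percentile 16.9) and 3 (115.3, percentile 16.2) and apoptotic cells 1 (198.5, percentile 87.2). Cxcr1 was the only one of the 14 with every LPS replicate above every unstimulated replicate, with 1, 1 and 3 peaks against 0, 0 and 0, where 9.87% of all genes were so placed. Between the stimuli, Cxcl17 had every LPS replicate above every apoptotic cell replicate, with 1, 1 and 3 against 0, 0 and 0 peaks (1 of 14, 1.99% of all genes). Cxcl14 had the reverse, with 0, 0 and 0 against 2, 1 and 2 (1 of 14, 1.28% of all genes), and was named after its values were seen.

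Likeness to other genes was measured by the best score percentile within 20 kb in each of the 9 replicates, with 0 where no peak was listed. By the smallest Euclidean distance, Ace was nearest to Cxcl1 (19.2 percentile points), Baat to Cxcl3 (17.9), Egfl7 to Cxcl2 (31.5), Gm382 to Cxcl13 (21.8) and Gm20888 to Cxcl16 (20.9). Cxcl9 and Cxcl10, which share their best peaks, both had Rab3gap2 as the nearest (33.4), and Cxcl11 had Gm31714 (33.4). Cxcl5 had a peak in fewer than 3 replicates and was not compared.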

How the data were processed

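FRA-1 ChIP-seq peak tables of unstimulated, LPS-stimulated and apoptotic cell-treated peritoneal macrophages were used, with 3 replicates per condition. The authors deposited 1 table per condition without a header, in which each genomic segment carries a score per replicate (-1 without a peak), the number of replicates with a peak, the sum of the scores and, in some rows, a gene. The submitters' processing notes name BWA 0.7.14, bedtools and GRCm38. The peak caller is not given in the sources used here, and the scores were not normalized between replicates. The paper's re-analysis of the reads with Trimmomatic, Bowtie2 and MACS2 is described separately from these tables. For 1 LPS sample, the records state that raw data are lacking.

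Segments with the same score that adjoined in a replicate were joined into peaks, and touching or overlapping peaks of the 9 replicates into regions. Gene positions and promoters came from RefSeq GRCm38.p6, in which 9 of 9 members were found, 6 of them with a promoter sequence. All protein-coding genes and Cxcl11, 21888 in total, were given the same 20 kb window. Numbers of peaks were compared with two-sided exact permutation tests and Benjamini-Hochberg adjustment over all genes. Whether replicates came from separate animals is not settled by the records. The permutation tests treated all replicates as unpaired and independent, which the same mice in every condition would not meet. Their p-values describe these samples only. All members, the 14 other CXC genes and the marker genes were taken up as listed, the 14 by name where a region recurred in a condition. The members and lists were chosen with earlier results of these data known. The processing was tested on simulated data. Alternatives were other windows, score minimums, numbers of peaks, segments, gene assignments, width classes and merging distances, and leaving out each replicate. Scripts ran in Python 3.11.15 with pandas 2.3.3, numpy 2.4.6, matplotlib 3.10.9 and scipy 1.17.1.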

Additional observations from a re-analysis of the deposited data

How the results depend on the processing

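Unknown depth, 3 replicates per condition and few peaks per gene limit these counts, and a position without a listed peak is not shown to be unbound. Member regions (7 unstimulated, 17 LPS and 16 apoptotic cells as reported) were fewer within 5 kb (3, 9 and 7) and more numerous within 50 kb (17, 32 and 38). They also fell with scores of at least 100 (11 for LPS, 10 for apoptotic cells), above the replicate's median (3, 5 and 9), with the 20981 top-scoring peaks of each replicate (6 for LPS, 7 for apoptotic cells), by the deposited gene column (2, 3 and 3), in the narrow class alone (2 unstimulated) and in the wide class alone (5 for LPS, 5 for apoptotic cells). These settings take in other peaks by construction.

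Within 50 kb, 5 regions recurred in at least 2 LPS and 3 in at least 2 apoptotic cell replicates, near 5 and 2 members. Of these, 2 regions in each comparison were absent from unstimulated replicates. Already within 20 kb, 48.7% and 24.4% of all genes had such a region, and the shares within 50 kb were not taken. Without those shares, these counts cannot be read as a gain at the members or as its absence. The region inside Cxcl10 did not recur after LPS (0 regions, 0 members) with equal numbers of peaks or by the deposited gene column. Within 5 kb, it counted for 1 member.

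Members with LPS above unstimulated replicates (1, Cxcl1, as reported) are given here with the share of all genes so placed under the same setting. Within 50 kb there was 1, Cxcl11 and not Cxcl1 (15.5%). There were 0 within 5 kb (6.38%), with scores of at least 100 (6.91%), above the median (3.46%) and with equal numbers of peaks (1.78%). By the deposited column there were 0 too, for which no share was taken. With segments as deposited there were 3 (Cxcl1, Cxcl9 and Cxcl10, 14.4%), and in the wide class alone 5 (33.5%). For apoptotic cells above unstimulated there was 1 within 50 kb (Cxcl11, 10.0% of all genes). Cxcl2 was the 1 with scores of at least 100 (3.94%) and above the median (2.04%). In the narrow class alone 7 were apart, 6 above (67.9%) and 1, Cxcl11, below (9.96%). For LPS against apoptotic cells, 2 were apart above the median in opposite directions. These were Cxcl11 with LPS above (1.16% of all genes) and Cxcl2 with LPS below (0.672%). With equal numbers of peaks, 1 was apart, Cxcl2 with LPS below (1.14%). In the narrow class 6 were apart, 5 with LPS below (38.0%) and Cxcl11 with LPS above (14.6%). In the wide class 1 was apart, Cxcl13 with LPS above (23.8%). A class leaves 1 replicate in some conditions, so these last counts carry no test. What causes these shifts was not tested.

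With each replicate left out, unstimulated regions ranged from 2 to 7 (2 without replicate 1), LPS regions from 10 to 17 (10 without replicate 1) and apoptotic cell regions from 5 to 16 (5 without replicate 3). Regions recurring after LPS ranged from 0 to 1 and their members from 0 to 3, 0 without LPS replicate 1 or 3. Regions recurring after LPS and absent without stimulation ranged from 0 to 1, 1 without unstimulated replicate 3. Members apart ranged from 1 to 4 for LPS (4 without LPS replicate 3), from 0 to 1 for apoptotic cells against unstimulated and from 0 to 1 for LPS against apoptotic cells.

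Merging peaks up to 500 bp apart, chosen after seeing the data, changed none of the counts that were retaken under it. It does join the regions 3937 bp (LPS replicate 1) and 4534 bp (apoptotic cell replicate 3) upstream of Cxcl1. The total of 36 member regions and the numbers listed in a single replicate or condition were not retaken. No paired analysis was possible because nothing in the tables ties a column to a mouse. Score percentiles at regions listed in every replicate were not run, as 0 member regions were.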

Other observations

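Many peaks had tied scores. The commonest score of each replicate was shared by 8.26% to 14.4% of its peaks, for example by 5977 of the 46007 peaks of LPS replicate 1 at 136.6. Of the 41 member peaks, 6 (14.6%) carried the commonest score of their replicate, against 11.8% of all peaks. These included the peaks of unstimulated replicate 3 and apoptotic cell replicate 2 inside Cxcl10, that of LPS replicate 1 inside Cxcl3 and that of LPS replicate 2 beyond Cxcl13. The other 2 were peaks of apoptotic cell replicate 3, upstream of Cxcl1 and beyond Cxcl13.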
